A study of Mus musculus with 6 samples.

Results

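The genes described here are 36 enzyme genes of glycolysis, the pyruvate dehydrogenase switch and the pentose phosphate pathway, 36 of the 23244 loci in each library, chosen as a named list and found by their symbols. They are 21 genes from hexokinase to lactate dehydrogenase, with the Pfkfb regulators, 6 genes of the pyruvate dehydrogenase switch, 2 phosphoglucomutases and 7 pentose phosphate genes.

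Glycolysis splits glucose into pyruvate, and lactate dehydrogenase turns pyruvate into lactate while restoring the cofactor that glycolysis needs. The pyruvate dehydrogenase complex instead sends pyruvate to the mitochondria, and pyruvate dehydrogenase kinases switch that complex off. The pentose phosphate pathway branches from glucose phosphate: its oxidative branch makes NADPH, and its non-oxidative branch makes ribose for nucleotides and exchanges sugars with glycolysis. Mouse embryonic stem (ES) cells, pluripotent cells grown from early embryos, are known for a high glycolytic rate.

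RNA was measured in 3 libraries of an ES line whose Zscan10 alleles are floxed and not deleted (control; titles marked f/f-Tx, the mark not being explained) and in 3 libraries of subcloned ES cells in which Zscan10 is constitutively knocked out (null). Zscan10 encodes a zinc-finger protein with a SCAN domain, and the line had been built as an inducible Cre-loxP knockout. The question was which genes differ between cells with and without Zscan10. The null cells are a subclone, so the genotype and the clone cannot be told apart. Nothing in the labels says that replicates were grown as separate cultures, and p-values therefore measure only the spread between these libraries, which may be technical.

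Zscan10, the deleted gene, was at 44.2, 43.0 and 41.9 FPKM (fragments per length of transcript, in kilobases, and per depth of the library) in control and at 5.49, 4.43 and 5.47 FPKM in null, so every library fitted its label; which part of the gene was deleted is not stated in the labels. The 6 libraries had similar relative depths, from 0.986 to 1.09 times control replicate 1, which held roughly 7730000 fragments. All 10 ES cell markers examined were at 5 FPKM or more on average, with summed levels from 4477 to 4561 FPKM in control and from 4274 to 4606 FPKM in null. Within that sum, where Dppa5a alone averaged 1799 FPKM, Fbxo15 rose 1.47-fold (limma adjusted p = 3.39e-04). Esrrb fell to 0.863 of control (limma adjusted p = 0.00941) and Zfp42 to 0.851 (limma adjusted p = 0.0188). The other ES cell markers did not reach an adjusted p of 0.05. Of 12 feeder fibroblast markers, 3 reached a mean of 1 FPKM and none was at 0 in all 6 libraries. Acta2 fell to 0.440 of control (limma adjusted p = 0.0331) and Tagln to 0.552 (limma adjusted p = 0.0444), while Thy1 rose 1.81-fold (limma adjusted p = 0.0215). The others lay under 1 FPKM and were not tested. Among them Col1a1 and Col1a2 were lower in every null library than in any control library, Lum was at 0 in control and Postn in null. The summed level of the 12 markers was 16.5 to 19.4 FPKM in control and 7.89 to 15.4 FPKM in null, and its part in the results was not tested. Of 9 extraembryonic endoderm markers, 2 reached 1 FPKM, and the sums over all 9 were 5.08 to 6.28 FPKM in control and 3.44 to 4.85 FPKM in null. Gata4 averaged 1.65 FPKM in control and 1.80 FPKM in null (limma adjusted p = 0.560). Dab2 averaged 2.10 and 1.18 FPKM (limma adjusted p = 0.0518), and neither passed. The others were not tested. Among them Sox7 averaged 0.723 and 0.170 FPKM with overlapping groups. Afp, Ttr and Apoa1 were at 0 in null but averaged only 0.103 FPKM or less in control.

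More of the enzyme genes rose than fell in null cells. Of 36, 35 had a mean of at least 1 FPKM and were tested. Of these, 11 rose (Hk1, Pfkl, Pfkm, Tpi1, Pgk1, Eno1, Pkm, Ldha, Pgm1, Tkt and Rpia), 2 fell (Hk2 and Pfkfb3) and 22 did not pass. RefSeq gives the name Pgm2 to the gene called Pgm1 here. A gene was called at a Benjamini-Hochberg adjusted p of 0.05 or less in limma, fitted on log2(FPKM + 1) over all 11480 loci that reached this mean. Among these loci 25.2% were called, 12.8% higher and 12.4% lower. The members' shares were 31.4% higher and 5.71% lower, so the share that rose was above the background and the share that fell was below it. Scaling the libraries to the same sum moved the split over all loci to 1875 higher and 1114 lower, from 1468 and 1426, and the members' to 14 higher and 2 lower. The number that rose was 6, 7 and 5 without control replicates 1, 2 and 3 and 6 without null replicate 3; the number that fell was 0 without any of these 4 libraries (2 or 3 had an unadjusted limma p under 0.05), 1 without null replicate 2 and 4 without null replicate 1. Over all loci, 1741, 1697 and 1939 calls were made in place of 2894 without control replicates 1, 2 and 3. Without null replicates 1, 2 and 3 the calls were 2903, 2081 and 1976. The median log2 fold change was 0.06 over the 35 members and -0.00 over all tested loci.

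The 3 null values lay wholly above the 3 control values for 15 members and wholly below for 3 (Hk2, Pfkfb3 and Pdk3), while 17 overlapped. The groups did not overlap for 44.1% of all tested loci, 21.6% with null above and 22.5% with null below. Summed over all 36 genes, the level was 7076, 7270 and 6829 FPKM in control and 8051, 7646 and 7766 FPKM in null, a ratio of 1.11. The lowest null library therefore lay above the highest control library, and the 36 genes made up 1.02% of all FPKM in control and 1.17% in null. In RNA from a whole culture, fewer cells that express a gene and less of its RNA per cell cannot be told apart.

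By level, the 14 members with a mean of 100 FPKM or more comprised 6 that rose and none that fell (limma; none with a negative change had an unadjusted p under 0.05 either), and 13 of the 14 log2 fold changes were above 0. Among all 908 loci at that level, 596 had a change above 0, 23.7% rose and 9.14% fell, against the members' 42.9% that rose. Of the 14 members from 10 to 100 FPKM, 4 rose and 1 fell, where 15.2% of loci at that level rose and 12.2% fell. Below 10 FPKM, 7 of 8 members were tested, Rpia rose and Pfkfb3 fell, where 8.45% of tested loci at that level rose and 13.2% fell.

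**Figure D1:**
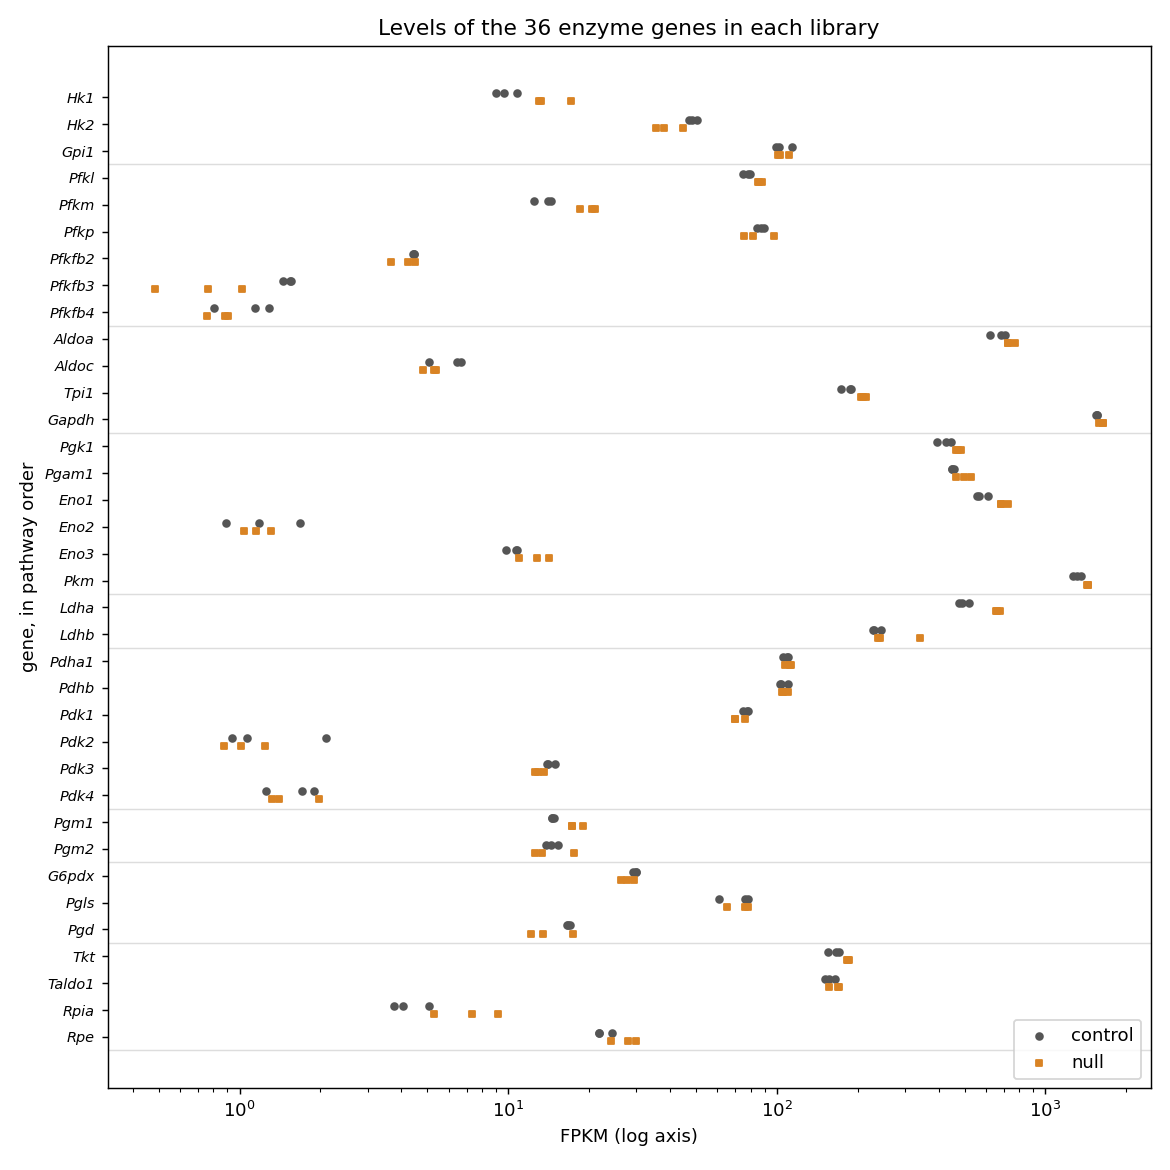
FPKM on a log axis of the 36 enzyme genes in pathway order, with a point for each of the 3 control and 3 null libraries. Levels run from about 1 FPKM for Pfkfb4 and Eno2 to 1547 FPKM for the control mean of Gapdh, and within a gene the 2 groups lie close together beside the differences between genes.

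**Figure D2:**
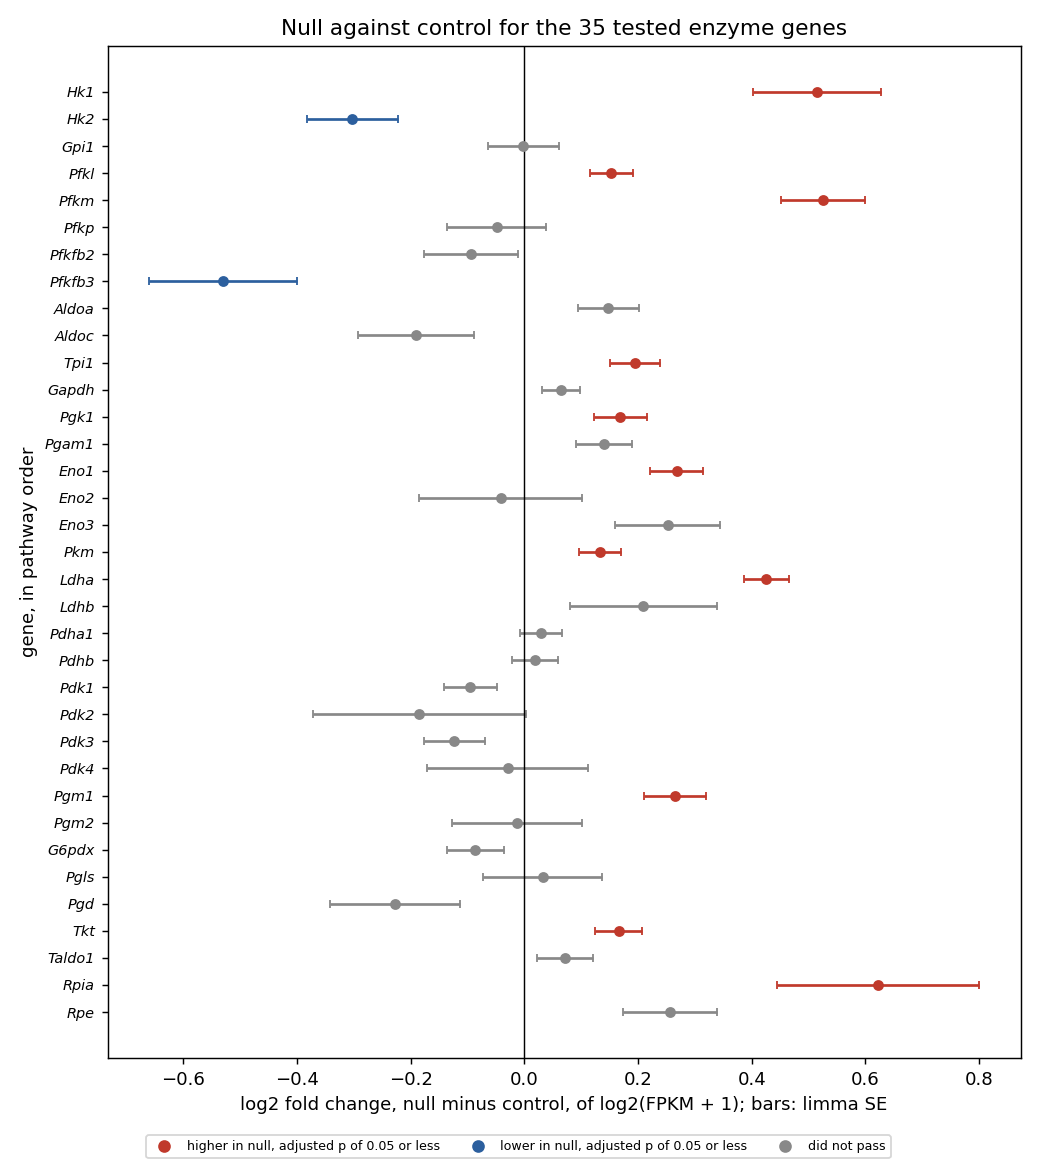
Log2 fold change of log2(FPKM + 1), null minus control, for the 35 tested genes in pathway order, with bars for the limma standard error and colours for the call. The changes run from -0.53 for Pfkfb3 to 0.62 for Rpia, and most genes from Aldoa to Ldhb lie right of 0.

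The promoters of 4 members are shown because hypoxia-inducible factors (HIF) bind a short core, ACGTG or GCGTG, at many glycolytic genes, and these 4 differ both in their response and in how many cores they hold. Each window covers 250 bases before and 50 after a transcription start in RefSeq on GRCm38.p6 and is written 5′ to 3′ on the gene's strand. Cores on either strand are in capitals, overlapping cores were counted separately, and the E-box CACGTG holds the core on each strand. Of several windows of 1 gene the one with the most cores is given.
Ldha, which rose, chr7:46845554-46845853, plus strand, 7 cores: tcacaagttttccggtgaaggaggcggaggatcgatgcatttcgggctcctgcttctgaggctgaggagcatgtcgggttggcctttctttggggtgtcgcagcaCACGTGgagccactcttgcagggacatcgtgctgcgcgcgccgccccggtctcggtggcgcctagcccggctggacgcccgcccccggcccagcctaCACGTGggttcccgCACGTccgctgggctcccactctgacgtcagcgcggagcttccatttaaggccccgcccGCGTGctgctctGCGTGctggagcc
Hk1, which rose, chr10:62340372-62340671, minus strand, 5 cores: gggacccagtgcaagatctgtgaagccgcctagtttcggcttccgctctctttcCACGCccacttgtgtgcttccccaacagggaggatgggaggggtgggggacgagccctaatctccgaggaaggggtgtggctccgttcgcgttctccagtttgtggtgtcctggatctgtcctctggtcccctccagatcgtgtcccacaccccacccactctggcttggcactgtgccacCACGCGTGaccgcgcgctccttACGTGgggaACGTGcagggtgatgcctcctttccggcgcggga
Hk2, which fell, chr6:82774405-82774704, minus strand, 2 cores: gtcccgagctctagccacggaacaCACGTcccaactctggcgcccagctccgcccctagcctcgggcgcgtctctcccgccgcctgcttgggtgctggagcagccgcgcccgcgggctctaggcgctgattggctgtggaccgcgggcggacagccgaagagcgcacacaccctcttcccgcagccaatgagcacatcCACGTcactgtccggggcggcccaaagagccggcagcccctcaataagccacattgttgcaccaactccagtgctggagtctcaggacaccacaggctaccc
Tpi1, which rose, chr6:124814109-124814408, minus strand, 0 cores: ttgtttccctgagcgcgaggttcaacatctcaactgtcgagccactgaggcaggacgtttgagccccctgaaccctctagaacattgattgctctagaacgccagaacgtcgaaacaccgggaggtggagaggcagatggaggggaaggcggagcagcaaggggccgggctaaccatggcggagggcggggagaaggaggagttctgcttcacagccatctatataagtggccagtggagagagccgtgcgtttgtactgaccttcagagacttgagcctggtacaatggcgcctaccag

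All 36 members had a window in the table, 53 windows in all, and 42 of these (79.2%) held the core, against 43.8% of the 32851 windows of all genes. The windows of the members were also richer in G and C, with a median of 60.7% against 52.7%, and the part of base composition in the share was not tested. Counted by gene, 88.9% of members held the core in any window, against 46.7% of all 27025 genes. That count favours genes with more windows, and the members had 53 windows for 36 genes, against 32851 for 27025. The 27025 genes were not limited to tested loci, and the part of either in the share was not tested. The core was present for 10 of the 11 members that rose, both that fell and 19 of the 22 that did not pass, so it was common in each class. A match describes these letters only. No binding was measured.

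At glucose entry, hexokinases trap glucose as glucose phosphate. Hk2 (chr6:82725025-82774454), the growth-linked hexokinase, measured 47.1, 50.5 and 48.3 FPKM in control and 44.6, 38.0 and 35.6 FPKM in null. Every null library lay below every control library, and Hk2 fell to 0.810 of its control mean (48.6 ± 1.72 to 39.4 ± 4.65 FPKM; SD, n = 3; log2 fold change -0.30, SE 0.08, limma adjusted p = 0.0309). Hk1 (chr10:62268855-62379920), the hexokinase of most tissues, measured 9.63, 10.7 and 9.01 FPKM in control and 17.2, 13.3 and 13.0 FPKM in null. The groups did not overlap, and Hk1 rose 1.48-fold (9.80 ± 0.879 to 14.5 ± 2.34 FPKM; log2 fold change 0.51, SE 0.11, limma adjusted p = 0.0160). The 2 genes thus moved in opposite directions. Both carry the core in the promoters shown, while another Hk1 window holds none. Hk1 supplied 17.0, 17.5 and 15.7% of the FPKM of the 2 genes in control and 27.8, 25.9 and 26.8% in null, a difference of 10.1 percentage points (two-sided exact permutation p = 0.1, the smallest that 3 against 3 allows). Their summed level was 58.4 ± 2.45 FPKM in control and 53.9 ± 6.95 FPKM in null and overlapped between groups. Over 15 alternative settings the adjusted p of Hk2 ran from 0.00409 to 0.102. The call was lost without any single control library, null replicate 2 or null replicate 3. It was also lost with no minimum level, no variance trend or the replicate block, which adds the replicate number to the fit. The adjusted p of Hk1 ran from 0.00891 to 0.0564, the call being lost without control replicate 1 or 3.

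Gpi1, which isomerizes glucose phosphate to fructose phosphate, measured 102, 114 and 99.1 FPKM in control and 111, 103 and 101 FPKM in null. The groups overlapped and the means were 105 ± 7.99 and 104.9 ± 5.34 FPKM (log2 fold change -0.00, SE 0.06, limma adjusted p = 0.985).

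Phosphofructokinase, the committing step of glycolysis, has 3 subunit genes, and 2 of them rose. Pfkm (chr15:98092589-98132447), the muscle-type subunit, measured 14.1, 14.4 and 12.4 FPKM in control and 21.1, 18.5 and 20.6 FPKM in null. All null values lay above all control values, and Pfkm rose 1.47-fold (13.6 ± 1.06 to 20.1 ± 1.35 FPKM; log2 fold change 0.53, SE 0.07, limma adjusted p = 0.00312), a call that held in all 15 alternatives. Pfkl (chr10:77986947-78009807), the liver-type subunit, measured 78.2, 79.4 and 74.7 FPKM in control and 85.8, 84.8 and 88.0 FPKM in null. These groups were apart too, with a rise of 1.11-fold (77.4 ± 2.45 to 86.2 ± 1.65 FPKM; log2 fold change 0.15, SE 0.04, limma adjusted p = 0.0257). Pfkp, the platelet-type subunit and the most abundant, measured 89.7, 87.5 and 84.1 FPKM in control and 97.3, 81.2 and 75.4 FPKM in null. Its groups overlapped, null replicate 1 being highest and null replicate 3 lowest of the 6 (log2 fold change -0.05, SE 0.09, limma adjusted p = 0.714). The call of Pfkl was lost without any single control library or null replicate 3, with quantile normalization, no variance trend or the replicate block. Its adjusted p ran from 0.0114 to 0.105.

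The subunit makeup moved accordingly. Pfkm was 7.65 ± 0.352% of the phosphofructokinase FPKM in control and 10.5 ± 0.583% in null, and Pfkp was 48.9 ± 0.551% and 44.2 ± 3.33%; each pair of groups was apart, with an exact permutation p of 0.1. The difference in the Pfkp share was -4.67 percentage points, and -3.06 without null replicate 3. Summed over the 3 genes, the level was 178 ± 6.04 FPKM in control and 191 ± 11.5 FPKM in null, a ratio of 1.07.

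The Pfkfb genes encode bifunctional enzymes that make and remove the sugar bisphosphate that activates phosphofructokinase, and the 3 among the 36 genes were scarce. Pfkfb3 (chr2:11471430-11554071), the form with mostly kinase activity, measured 1.54, 1.45 and 1.55 FPKM in control and 0.764, 1.02 and 0.485 FPKM in null. Each null value lay below each control value, and Pfkfb3 fell to 0.499 of its control mean (1.51 ± 0.0528 to 0.755 ± 0.267 FPKM; log2 fold change -0.53, SE 0.13, limma adjusted p = 0.0242). With a pseudocount of 0.1 its log2 fold change was -0.97, and it rests on an estimated 18 to 59 fragments per library. The call was lost without any single control library or null replicate 3 and with the replicate block, the adjusted p running from 0.0185 to 0.0684. Pfkfb2, the most abundant of these 3, measured 4.42, 4.48 and 4.47 FPKM in control and 4.49, 4.23 and 3.65 FPKM in null. These groups overlapped (log2 fold change -0.09, SE 0.08, limma adjusted p = 0.442). Pfkfb4 averaged 1.08 ± 0.251 FPKM in control and 0.849 ± 0.0779 FPKM in null; its mean over all libraries was under 1 FPKM, so it was the only member not tested. As a share of the summed FPKM of these 3 genes, Pfkfb3 was 21.5 ± 0.21% in control and 13.0 ± 3.35% in null, and Pfkfb2 was 63.3 ± 2.88% and 72.2 ± 3.01% (exact permutation p = 0.1 for each). Pfkfb1, the liver form, is not among the 36 genes or in these shares, and averaged 5.67 ± 0.619 FPKM in control and 6.60 ± 0.578 FPKM in null with overlapping groups (limma adjusted p = 0.177).

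Aldolase splits the sugar bisphosphate into 2 trioses. Aldoa, the abundant form, measured 682, 706 and 622 FPKM in control and 773, 726 and 725 FPKM in null. The groups were apart, yet the difference did not pass (1.11-fold; log2 fold change 0.15, SE 0.05, limma adjusted p = 0.0857). Aldoc, the brain-type form, averaged 6.06 ± 0.867 FPKM in control and 5.16 ± 0.286 FPKM in null (limma adjusted p = 0.211). Tpi1 (chr6:124810586-124814158) interconverts the trioses, and measured 187, 189 and 173 FPKM in control and 215, 209 and 205 FPKM in null. The null libraries all lay above the control libraries, and Tpi1 rose 1.14-fold (183 ± 8.73 to 209.8 ± 4.99 FPKM; log2 fold change 0.20, SE 0.04, limma adjusted p = 0.0175). Its promoter was the one shown above without a core. The call of Tpi1 was lost with quantile normalization only, at an adjusted p of 0.108, the highest of its 15 alternatives, which reached down to 0.00608.

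Gapdh, the dehydrogenase that follows and a common reference gene, measured 1552, 1551 and 1536 FPKM in control and 1639, 1578 and 1636 FPKM in null. It was the most abundant member and the groups were apart, but its 1.05-fold difference did not pass (log2 fold change 0.06, SE 0.03, limma adjusted p = 0.194).

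The steps from phosphoglycerate kinase to pyruvate kinase yield the ATP of glycolysis. Of their 6 genes 3 rose, none fell, and 5 had null libraries wholly above control (median log2 fold change 0.15). No fall had an unadjusted limma p under 0.05. Over all loci 12.8% rose, 12.4% fell and 21.6% had null above. The 3 that rose, Pgk1, Eno1 and Pkm, averaged more than 100 FPKM. Of the 908 loci at 100 FPKM or more, 23.7% rose, 9.14% fell and 321 had null wholly above control.

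Pgk1 (chrX:106187100-106203699), which makes the first ATP, measured 425, 445 and 396 FPKM in control and 484, 465 and 473 FPKM in null. The groups were apart, and Pgk1 rose 1.12-fold (422 ± 24.2 to 474 ± 9.75 FPKM; log2 fold change 0.17, SE 0.05, limma adjusted p = 0.0374). Its adjusted p ran from 0.0126 to 0.502 over the alternatives. The call was lost without control replicate 1 or 3 or any single null library. It was also lost with no minimum level, no variance trend or the replicate block. Quantile normalization lost it too, with a log2 fold change of 0.05. Pgam1, the phosphoglycerate mutase, measured 447, 457 and 450 FPKM in control and 530, 465 and 499 FPKM in null. Its groups were apart but did not pass (1.10-fold; log2 fold change 0.14, SE 0.05, limma adjusted p = 0.0769).

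Eno1 (chr4:150236708-150248879), the main enolase, measured 568, 610 and 558 FPKM in control and 725, 681 and 684 FPKM in null. Every null library was above every control library, and Eno1 rose 1.20-fold (579 ± 27.7 to 696 ± 24.7 FPKM; log2 fold change 0.27, SE 0.05, limma adjusted p = 0.00657), which held in all 15 alternatives. The locus of a near-identical enolase copy, Gm5506 in the files and Eno1b in RefSeq, was at 163 ± 11.5 FPKM in control and 193.8 ± 5.87 FPKM in null, a ratio of 1.19 (log2 fold change 0.25, SE 0.06, limma adjusted p = 0.0164). Reads of the 2 copies may have been split between them. Eno2, the neuronal enolase, averaged 1.25 ± 0.398 and 1.17 ± 0.137 FPKM (limma adjusted p = 0.857). Eno3, the muscle enolase, averaged 10.4 ± 0.522 FPKM in control and 12.7 ± 1.63 FPKM in null, with the groups apart but not past the threshold (limma adjusted p = 0.0857). Eno1 was 98.0% of the summed FPKM of Eno1, Eno2 and Eno3 in each group.

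Pkm (chr9:59656576-59679372) encodes pyruvate kinase, the last step to pyruvate, and measured 1313, 1350 and 1262 FPKM in control and 1434, 1433 and 1437 FPKM in null. The groups were apart, and Pkm rose 1.10-fold (1309 ± 44.5 to 1435 ± 2.15 FPKM; log2 fold change 0.13, SE 0.04, limma adjusted p = 0.0347). That call was lost without any single one of the 6 libraries, with no minimum level, no variance trend or the replicate block. Its adjusted p ran from 0.0131 to 0.0889. The files give 1 value per gene, so the splice forms of Pkm were not analysed here.

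Ldha showed the smallest adjusted p of the 35 members. Ldha (chr7:46842274-46855627), the lactate dehydrogenase subunit that favours lactate, measured 488, 517 and 477 FPKM in control and 653, 676 and 662 FPKM in null. The lowest null library was well above the highest control library, and Ldha rose 1.34-fold (494 ± 20.9 to 664 ± 11.6 FPKM; log2 fold change 0.43, SE 0.04, limma adjusted p = 8.15e-04). Over the 15 alternatives the log2 fold change ran from 0.37 to 0.47 and the adjusted p from 2.02e-04 to 0.00693. Its promoter held the most cores of those shown. Windows with 4 cores belonged to Pfkfb3, which fell, and to Pfkfb2, Pfkp, Pdha1 and Pdk3, which did not pass. Whether the number of cores goes with the response was not tested.

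Ldhb, the subunit that favours pyruvate, measured 229, 245 and 228 FPKM in control and 342, 239 and 243 FPKM in null. Null replicate 1 stood far above the other 5 libraries, the groups overlapped, and the difference did not pass (log2 fold change 0.21, SE 0.13, limma adjusted p = 0.270); without null replicate 1 the log2 fold change was 0.04 (adjusted p = 0.509, within a range of 0.168 to 0.533 over the alternatives). Ldha was 68.0, 67.9 and 67.7% of the summed FPKM of Ldha and Ldhb in control and 65.6, 73.9 and 73.2% in null, so the groups overlapped (exact permutation p = 0.4). The difference in this share was 3.05 percentage points, and 5.68 without null replicate 1, 1.56 without null replicate 2 and 1.91 without null replicate 3. Summed over both genes, lactate dehydrogenase measured 717, 762 and 705 FPKM in control and 995, 915 and 904 FPKM in null, 1.29-fold higher in null with no overlap.

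**Figure D3:**
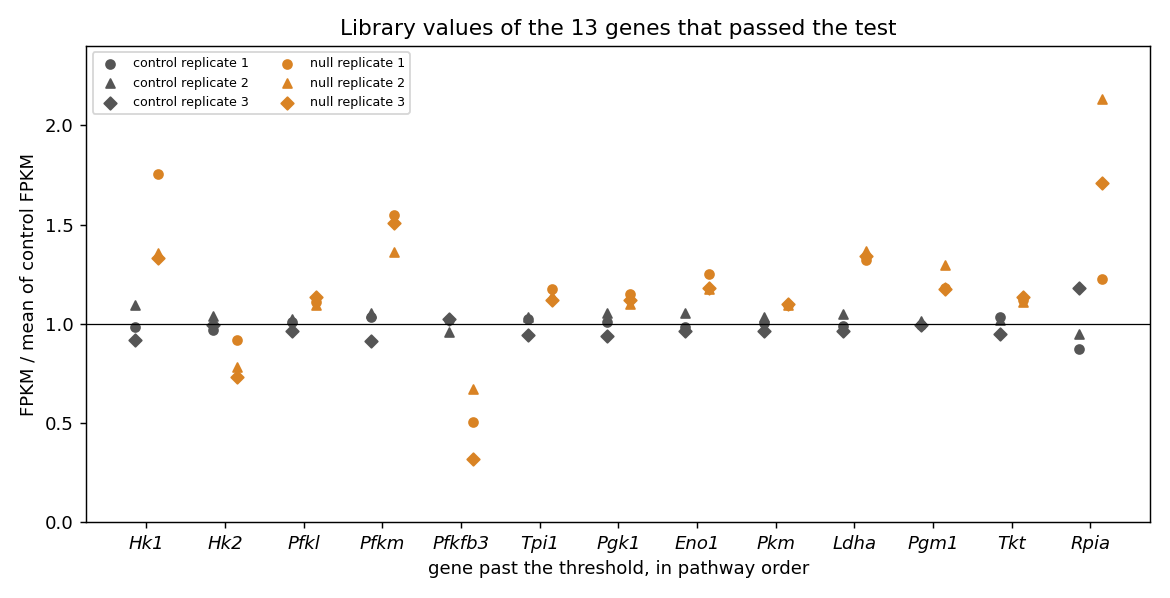
FPKM of each library divided by the control mean, for the 13 genes past the threshold, with a marker for each replicate. The null libraries of Hk2 and Pfkfb3 lie below the control libraries, those of the other 11 genes lie above, and Rpia shows the widest spread in null.

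**Figure D4:**
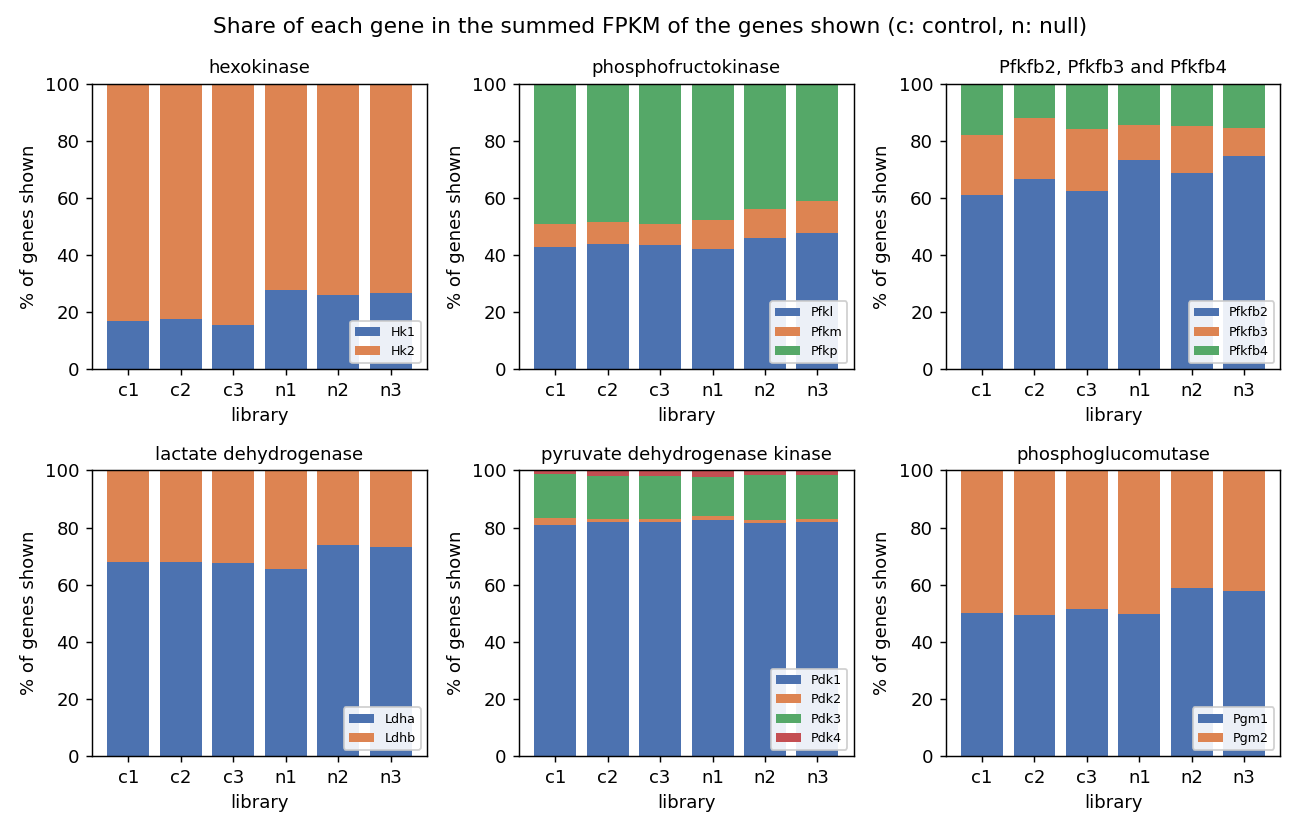
Percent of the summed FPKM of the genes shown in a panel that each of them supplied, in each of the 3 control (c) and 3 null (n) libraries. The Hk1 part grows from 15.7 to 17.5% in control to 25.9 to 27.8% in null, while Ldha in null replicate 1 lies below the other null libraries.

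The pyruvate dehydrogenase switch showed no call among 6 genes in limma, where 25.2% of all tested loci were called. Whether the 6 genes differ from that share was not tested. None of them had an unadjusted p under 0.05, and the median log2 fold change was -0.06. Pdha1, the catalytic alpha subunit, measured 106, 109.5 and 110.3 FPKM in control and 112, 107 and 112 FPKM in null. Its groups overlapped (log2 fold change 0.03, SE 0.04, limma adjusted p = 0.598). Pdhb, the beta subunit, averaged 105 ± 3.78 and 107 ± 2.64 FPKM (limma adjusted p = 0.757).

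Pdk1, the most abundant of the kinases that inhibit the complex, measured 78.0, 77.4 and 74.7 FPKM in control and 76.2, 69.7 and 69.6 FPKM in null. The groups overlapped through null replicate 1, and the difference did not pass (log2 fold change -0.10, SE 0.05, limma adjusted p = 0.174); it passed without that library (log2 fold change -0.14, adjusted p = 0.0411, the lowest of its alternatives, which reached 0.397). Pdk3 averaged 14.3 ± 0.522 FPKM in control and 13.0 ± 0.487 FPKM in null, all null libraries being lower, without passing (limma adjusted p = 0.135). Pdk2 and Pdk4 were near the lower limit of the test, at 1.37 ± 0.635 and 1.04 ± 0.185 FPKM for Pdk2 and at 1.62 ± 0.329 and 1.57 ± 0.362 FPKM for Pdk4, with overlapping groups. Pdk1 made up 81.6% of the kinase FPKM in control and 82.1% in null (exact permutation p = 0.4), and the summed kinase level of 94.0 and 87.5 FPKM overlapped between groups.

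Phosphoglucomutases as a family move the phosphate within glucose phosphate and link glycogen to glycolysis. Which of the 2 genes here serves that role was not examined. The 2 symbols are exchanged between the files and the RefSeq table: the locus called Pgm1 in the files carries the accession of RefSeq's Pgm2, and the reverse, and the files' symbols are used here. Pgm1 (chr5:64092919-64128355) measured 14.5, 14.8 and 14.6 FPKM in control and 17.3, 19.0 and 17.2 FPKM in null. Its groups were apart, and Pgm1 rose 1.22-fold (14.7 ± 0.167 to 17.8 ± 1.03 FPKM; log2 fold change 0.27, SE 0.05, limma adjusted p = 0.0129), past the threshold in all 15 alternatives. Pgm2 averaged 14.5 ± 0.756 and 14.5 ± 2.66 FPKM, with overlapping groups (limma adjusted p = 0.947).

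In the pentose phosphate pathway, 2 of 7 genes rose (28.6% against 12.8% of all loci) and none fell, against 12.4% (no fall had an unadjusted p under 0.05), and both that rose belong to the non-oxidative branch. None of the 3 oxidative genes passed in limma, where 25.2% of all tested loci did, and none had an unadjusted p under 0.05. Their groups all overlapped, while 44.1% of all tested loci had groups that did not. The median log2 fold change was -0.09 over the oxidative and 0.21 over the 4 non-oxidative genes; the difference between the branches was not tested.

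G6pdx, the rate-limiting dehydrogenase that makes the first NADPH, measured 29.2, 29.8 and 29.9 FPKM in control and 27.8, 26.4 and 29.5 FPKM in null. Null replicate 3 lay within the control range (log2 fold change -0.09, SE 0.05, limma adjusted p = 0.242). Pgls, the lactonase, measured 76.0, 78.4 and 61.1 FPKM in control and 78.3, 65.4 and 76.0 FPKM in null, overlapping throughout (limma adjusted p = 0.849). Pgd, the dehydrogenase that makes the further NADPH, measured 16.6, 17.1 and 16.7 FPKM in control and 17.4, 13.5 and 12.1 FPKM in null. Its null libraries split, null replicate 1 lying above all control libraries and the others below (log2 fold change -0.23, SE 0.12, limma adjusted p = 0.186). Without null replicate 1 the log2 fold change of Pgd was -0.37 and passed (adjusted p = 0.00986, the lowest of its alternatives, which reached 0.443).

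Tkt (chr14:30549131-30574724) encodes transketolase, which moves 2-carbon units between sugars; its locus in the files also holds the microRNA gene Mir3076. It measured 169.7, 167 and 155 FPKM in control and 184, 182 and 186 FPKM in null. The groups were apart, and Tkt rose 1.12-fold (164 ± 7.51 to 184 ± 1.93 FPKM; log2 fold change 0.17, SE 0.04, limma adjusted p = 0.0246). Its call was lost without control replicate 2 or 3 or null replicate 2 or 3. That call was also lost with quantile normalization, no variance trend or the replicate block, the adjusted p running from 0.0110 to 0.0898. Taldo1, transaldolase, measured 164, 157 and 151 FPKM in control and 169.6, 156 and 170.4 FPKM in null, with overlapping groups (log2 fold change 0.07, SE 0.05, limma adjusted p = 0.321).

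Rpia (chr6:70765720-70792175) makes ribose phosphate and had the largest log2 fold change of the 35 members. It measured 3.75, 4.07 and 5.07 FPKM in control and 5.28, 9.17 and 7.35 FPKM in null, an estimated 53 to 142 fragments per library. The groups were apart by a narrow gap, between control replicate 3 and null replicate 1, and Rpia rose 1.69-fold (4.30 ± 0.689 to 7.27 ± 1.95 FPKM; log2 fold change 0.62, SE 0.18, limma adjusted p = 0.0404). Its call was lost without any single control library or null replicate 2 or 3, with no minimum level and with no variance trend, the adjusted p running from 0.00990 to 0.124. Rpe, the epimerase of the same branch, measured 24.4, 21.7 and 21.9 FPKM in control and 24.2, 27.9 and 29.8 FPKM in null. The groups overlapped through control replicate 1 and null replicate 1, and the difference did not pass (log2 fold change 0.26, SE 0.08, limma adjusted p = 0.0597). It passed without null replicate 1, with the libraries scaled to the same sum and with robust variance, over a range of 0.0158 to 0.168. Summed over the 4 non-oxidative genes, the level was 348 ± 14.3 FPKM in control and 384 ± 9.20 FPKM in null, a ratio of 1.10 with the groups apart, while the oxidative sum of 118 and 115 FPKM overlapped.

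The null libraries differed among themselves in these genes. Null replicate 1 was the highest of the null libraries for 20 of the 36 members (55.6%), a larger share than its 4130 of the 11480 tested loci, and control replicate 2 was the highest control library for 20 of 36 (55.6%), against 32.7% of the tested loci. Ldhb and Pgd, above, are among the members that null replicate 1 sets apart.

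Several members have near-identical copies elsewhere in the genome, so their FPKM may include or lose reads of a copy. A stretch of 200 bases or more at 95% identity or more in another gene was found for 15 of 36 members, and in a pseudogene for 10 of them. A match can also be a transcript that overlaps the member's own locus rather than a copy elsewhere. Gapdh had such a match in 78 genes, 75 of them pseudogenes, Pgk1 and Ldha in 4 each, Eno1 in 3 and Pkm in 2. No label says whether counting used strand, and 4 members overlap a neighbour: Rpe with Kansl1l, Pdha1 with Map3k15, Pfkp with Pitrm1 and Pgm2 with Itgb3bp.

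Another 95 genes around these pathways were listed in 6 groups, and 94 were found. Of the 69 tested, 10 rose and 12 fell, 14.5% and 17.4% beside a background of 12.8% and 12.4%, with a median log2 fold change of -0.06. Of the 10 tested among the other isozymes of the same steps, none passed (limma; 1 had an unadjusted p under 0.05, in the upward direction), and Pgam5, the most abundant, averaged 30.9 and 29.3 FPKM (adjusted p = 0.320).

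In glucose and lactate transport, 1 of 8 tested genes rose and 3 fell, 12.5% and 37.5% against 12.8% and 12.4% of all loci. The median log2 fold change was -0.10. Mpc1, a subunit of the carrier that takes pyruvate into mitochondria, rose 1.66-fold (21.3 ± 0.691 to 35.2 ± 3.12 FPKM; log2 fold change 0.70, SE 0.07, limma adjusted p = 9.46e-04). Mpc2, the partner subunit, averaged 8.84 and 11.7 FPKM without passing (adjusted p = 0.109). Slc2a1, a glucose importer of many tissues, fell to 0.897 of control (146 ± 3.90 to 130.9 ± 4.73 FPKM; limma adjusted p = 0.0286). Slc2a3, another glucose importer and the more abundant, averaged 268 ± 7.09 and 259.6 ± 17.5 FPKM with overlapping groups and did not pass (limma adjusted p = 0.526). Slc16a1, a lactate transporter, fell to 0.847 (37.7 ± 1.27 to 31.9 ± 1.43 FPKM; limma adjusted p = 0.0136), and Slc16a3, a lactate exporter, to 0.652 (28.4 ± 3.98 to 18.5 ± 1.85 FPKM; limma adjusted p = 0.00916). Slc16a3 lies on chromosome 11, where 27.7% of 932 tested loci fell; the part of that chromosome in its value was not tested. The members on chromosome 11, Aldoc, Eno3 and Pdk2, did not pass. Of 6 other parts and phosphatases of the pyruvate dehydrogenase complex, none passed in limma, against 25.2% of all tested loci, and 1 had an unadjusted p under 0.05, downward. Dld, the shared dehydrogenase subunit, averaged 53.4 and 53.8 FPKM (limma adjusted p = 0.862).

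Gluconeogenesis and glycogen genes comprised 11 tested, of which 2 rose (18.2% against 12.8% of all loci) and none fell, against 12.4% (4 had an unadjusted p under 0.05 downward). Fbp2, the muscle fructose bisphosphatase, rose 2.72-fold from a low level (1.54 ± 0.224 to 4.20 ± 0.645 FPKM; log2 fold change 1.03, SE 0.12, limma adjusted p = 0.00148). Pygl, liver glycogen phosphorylase, rose 1.96-fold (1.11 ± 0.168 to 2.18 ± 0.708 FPKM; limma adjusted p = 0.0406).

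The branches that leave glycolysis had the highest share of calls among the 6 groups: of 14 tested genes 5 rose and 6 fell, 78.6% against 25.2% of all loci. The lists were chosen with earlier results of these data known, so this share describes the list only. Psat1, a transaminase of serine synthesis, fell to 0.544 of control, at 229.5 ± 0.309 FPKM in control and 162, 111 and 102 FPKM in null (limma adjusted p = 0.00594). Psph, the phosphatase that finishes serine, fell from 31.3 to 19.6 FPKM (adjusted p = 0.0124), and Gfpt2, which opens the hexosamine branch and lies on chromosome 11, fell from 33.0 ± 1.22 to 17.2 ± 1.22 FPKM (limma adjusted p = 2.55e-04). Those that rose with the largest changes were Sord, sorbitol dehydrogenase (11.2 to 15.3 FPKM, adjusted p = 0.00257), and the ribose phosphate users Prps2 (11.7 to 16.0 FPKM, adjusted p = 0.00194) and Prps1 (69.9 to 87.1 FPKM, adjusted p = 0.00392). Prps1 and Prps2 make the activated ribose for nucleotides from the product of Rpia.

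HIF factors and hypoxia targets outside glycolysis showed 2 of 20 tested genes that rose and 3 that fell, shares of calls near the background. The median log2 fold change was -0.07. Null lay wholly below control for 8 of the 20 and wholly above for 4, against 22.5% and 21.6% of all tested loci. An unadjusted limma p under 0.05 was reached downward by 7 and upward by 4, against 2277 and 2225 of all 11480 loci. Hif1a, a HIF subunit, averaged 47.4 FPKM in control and 45.5 FPKM in null (limma adjusted p = 0.356). Egln1, which marks HIF for destruction, fell from 6.10 to 3.88 FPKM (adjusted p = 0.0175), Vegfa, a vessel growth factor, from 10.1 to 6.55 FPKM (adjusted p = 0.0194), and P4ha1, a collagen hydroxylase subunit, from 10.5 to 7.15 FPKM (adjusted p = 0.00746). Kdm3a, a histone demethylase, rose from 96.1 to 120.1 FPKM (adjusted p = 0.0219) and Higd1a, a mitochondrial protein, from 22.2 to 27.5 FPKM (adjusted p = 0.0212). The hypoxia list held genes of both directions, and a HIF response as a cause was not tested.

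**Figure D5:**
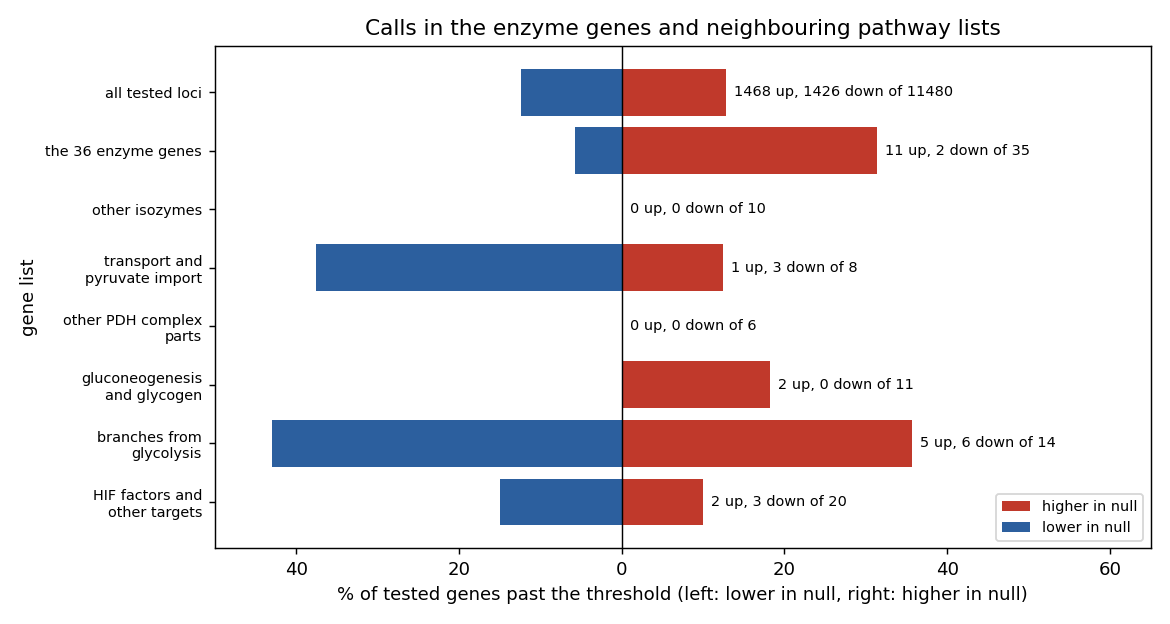
Percent of tested genes that rose (right of 0) or fell (left of 0) in null, for all tested loci, the enzyme genes and the 6 lists of other pathway genes, with the counts beside the bars. The enzyme genes show the rise of 11 beside the fall of 2, and the branches from glycolysis show both directions at shares above all loci.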

How the data were processed

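RNA-seq after depletion of ribosomal RNA covered 3 control and 3 null libraries, per the labels' protocols. Cuffdiff, TopHat, FastQC, Trim Galore and mm10 are named in the submitters' processing notes; no version or role of any of them is stated. The deposited values were taken as FPKM made by the authors, since no label or header states the unit. Depth was read from low values: among 4166 values below 0.15 FPKM, 95% were whole multiples of a gene's step within 2%, and 599 genes gave the fragment estimate.

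The members and lists were chosen with earlier results of these data known. Loci whose mean reached 1 FPKM were fitted with limma 3.58.1 in R 4.3.3 (mean-variance trend, no covariate) on log2(FPKM + 1) and adjusted by Benjamini-Hochberg, at 0.05. Fold changes are on that scale and understate changes of low genes; ratios are of mean FPKM; errors are SDs over 3 libraries unless SE is named. Single values used an exact two-sided permutation test. Every member is accounted for; values in each library are given for members past the threshold and for the most abundant gene of a step. From other lists up to 3 genes per direction with the largest change were named, or the most abundant where none passed, with a few others added after their values were seen (Mpc2, Slc2a3, Pfkfb1, Hif1a, Gm5506). Copies were searched with blastn 2.17.0 on GENCODE M21 transcripts. Coordinates are GRCm38.p6, which is mm10. The fit was tested on simulated data with independent noise and larger changes than those of most members. That test therefore cannot speak to calls as small as most of those here. Alternatives changed the pseudocount (0.1), the minimum mean (none, or 5 FPKM), the scaling, the variance model or the replicate block, or left out 1 library; the expression "15 alternatives" means these.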

Additional observations from a re-analysis of the deposited data

How the results depend on the processing

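The 13 calls among the members kept their direction in every alternative that tested them, and 4 of them (Pfkm, Eno1, Ldha and Pgm1) passed in every one; 8 were lost without some single library, and Tpi1 with quantile normalization. The number of members that rose, 11 as reported, was 7 with quantile normalization, 6 with no variance trend and 7 with the replicate block. The loci that rose, 1468 as reported, numbered 1329, 1288 and 1190 with the same settings, a smaller relative drop than among the members. Without 1 library 5 to 11 members rose, lowest without control replicate 3 and highest without null replicate 1. The number of members that fell, 2 as reported, was 1 with no minimum level, 1 with a minimum mean of 5 FPKM and 1 with no variance trend. It was 0 with the replicate block (2 at an unadjusted limma p under 0.05) and 0 to 4 without 1 library, highest without null replicate 1. The loci that fell, 1426 of 11480 as reported, numbered 1209 of 18476 with no minimum level and 1051 of 8258 with a minimum mean of 5 FPKM. They numbered 1381 with no variance trend and 1074 with the replicate block. Over all loci, 915 to 1472 rose and 782 to 1431 fell without 1 library, both lowest without control replicate 2.

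Sign changes touched only members that had not passed. Gpi1 was at a log2 fold change of 0.0396 with the libraries scaled to the same sum and 0.00053 with median of ratios scaling, and Pgm2 at 0.0263 with the same sum; with quantile normalization Pdha1 was at -0.0308, Pdhb at -0.0495 and Pgls at -0.0147. Without 1 library the log2 fold change ran from -0.0434 to 0.0582 for Gpi1, -0.152 to 0.0296 for Pfkp, -0.159 to 0.0917 for Eno2, -0.0012 to 0.0479 for Pdhb, -0.314 to 0.0253 for Pdk2, -0.142 to 0.0472 for Pdk4, -0.149 to 0.0761 for Pgm2 and -0.0782 to 0.110 for Pgls. The cause was not tested.

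Same-numbered libraries of the 2 groups correlated at -0.002, 0.108 and 0.053 in their deviations, so the numbers were not treated as pairs; with the replicate block 1190 loci rose and 1074 fell. Hk2, Pfkl, Pfkfb3, Pgk1, Pkm and Tkt lost their calls with it, at adjusted p from 0.0514 to 0.0712. The 3 libraries per group and low levels limit precision for Pfkfb3, Pfkfb4, Eno2, Pdk2 and Pdk4, which lie near 1 FPKM.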
